A study of Mus musculus with 6 samples.

Results

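The NF-κB subunits and the inhibitors that NF-κB itself induces were examined in mouse B cells of the germinal center (GC), the site of antibody gene mutation and B cell selection, and in resting, naive B cells. The members were 10 genes chosen by name: the subunit genes Nfkb1, Nfkb2, Rel, Rela and Relb, and the inhibitor genes Nfkbia, Nfkbie, Nfkbiz, Tnfaip3 and Bcl3. They are 10 of the 39179 genes in the expression table, and all 10 were among the 12785 genes that reached at least 1 TPM, a unit of transcript abundance corrected for gene length and for the total of the pool, in at least 3 pools and were tested. Both populations came from Peyer's patches, the lymphoid tissue of the gut wall, taken from the ileum of untreated wild-type (WT) C57BL/6 females aged 12 weeks. GC B cells were sorted as Fas+GL7+ and naive B cells as Fas-GL7- B cells, and RNA-Seq was done on 3 biological replicates of each, every replicate being a pool of mice. Whether equally numbered GC and naive pools share mice is not stated. The naive gate rests on the absence of Fas and GL7, with no antibody for IgD, so that it can hold other Fas-GL7- B cells.

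NF-κB proteins bind DNA as dimers. Nfkb1 encodes p105, the precursor of p50, and Nfkb2 encodes p100, the precursor of p52, neither of which carries a transactivation domain, whereas c-Rel (Rel), p65 (Rela) and RelB (Relb) do. In resting cells the dimers are held in the cytoplasm by IκB proteins until the IKK kinase complex, switched on by the B cell receptor, CD40, BAFF receptors or Toll-like receptors, marks the IκB for destruction. Several of the genes then induced encode inhibitors, such as IκBα (Nfkbia), IκBε (Nfkbie) and the ubiquitin-editing enzyme A20 (Tnfaip3), which close a negative feedback loop. A TPM value is the share of a gene's transcripts, per length, in the RNA of a pool. A lower value can stand for less RNA of a gene per cell or fewer cells expressing it. It can also stand for more RNA of other genes in the cells, and these readings cannot be told apart.

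All 6 pools matched their labels by marker genes of GC and naive B cells. The GC marker Bcl6 stood between 241.8 and 258.0 TPM in GC pools, against between 46.9 and 51.6 TPM in naive pools, and the proliferation gene Mki67 between 227.1 and 229.1 TPM in GC pools, against between 0.697 and 0.905 TPM in naive pools. Fas, a gene of the sort itself, and S1pr2 were likewise higher in every GC pool. The naive marker Fcer2a stood between 97.5 and 106.9 TPM in GC pools, against between 680.5 and 715.1 TPM in naive pools, and Ccr6 and Gpr183 were also lower in every GC pool, while Ighd had no value. Genes of T cells were near 0 in both populations (5 markers, summed to between 1.65 and 3.51 TPM in GC and between 1.72 and 2.46 TPM in naive pools). The depth was estimated from the steps of low values at between 9600000 and 16200000 reads per pool, with naive pool 2 the deepest.

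The promoters of the members are shown first because feedback by NF-κB runs through its own binding sites. RefSeq promoter windows of GRCm38.p6, from 250 bases before to 50 bases after an annotated transcription start, were found for 7 of the 10 members and searched on both strands for the 10-base κB consensus. None was found for Nfkb1, Relb and Nfkbiz. At least 1 window of Nfkb2, Rel, Nfkbia, Nfkbie, Tnfaip3 and Bcl3 held a match, so that 6 of these 7 members had one, and the Rela window had none, which says only that these letters are not in that window. Among all 27025 genes with a window, 5.14% had a match, and among all 32851 windows 4.51% did. Counted by window, 8 of 10 member windows held a match, but a pair of the Nfkb2 windows overlap and share one. In the stretches below, written 5′ to 3′ on the strand of the gene, capitals mark the bases that match the κB consensus on either strand.
Nfkbia, chr12:55492652-55492691, minus strand: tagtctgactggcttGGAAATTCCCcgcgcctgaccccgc
Nfkbie, chr17:45555579-45555618, plus strand: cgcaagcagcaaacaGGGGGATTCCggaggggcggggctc
Tnfaip3, chr10:19015411-19015437, minus strand: actggaatttccatcGGAAATCCCCct
Tnfaip3, chr10:19015511-19015550, minus strand: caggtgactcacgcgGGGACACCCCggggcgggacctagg
Rel, chr11:23771036-23771076, minus strand: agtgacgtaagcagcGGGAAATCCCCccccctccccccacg
Nfkb2, chr19:46304683-46304736, plus strand: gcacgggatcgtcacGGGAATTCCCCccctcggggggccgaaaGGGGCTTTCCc
All of these stretches lie upstream of an annotated start, at distances shown in the plot of matches. The Nfkb2 stretch also lies inside the gene's full span, which RefSeq begins farther upstream. Of Tnfaip3's windows, the one at the start of the gene span held both matches and the one at an internal start held none. The Bcl3 match, GGGACTTCCC on the strand opposite to the gene, lay just downstream of its start. No binding was measured in these samples, and a match is a description of sequence, not a site in use.

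**Figure D1:**
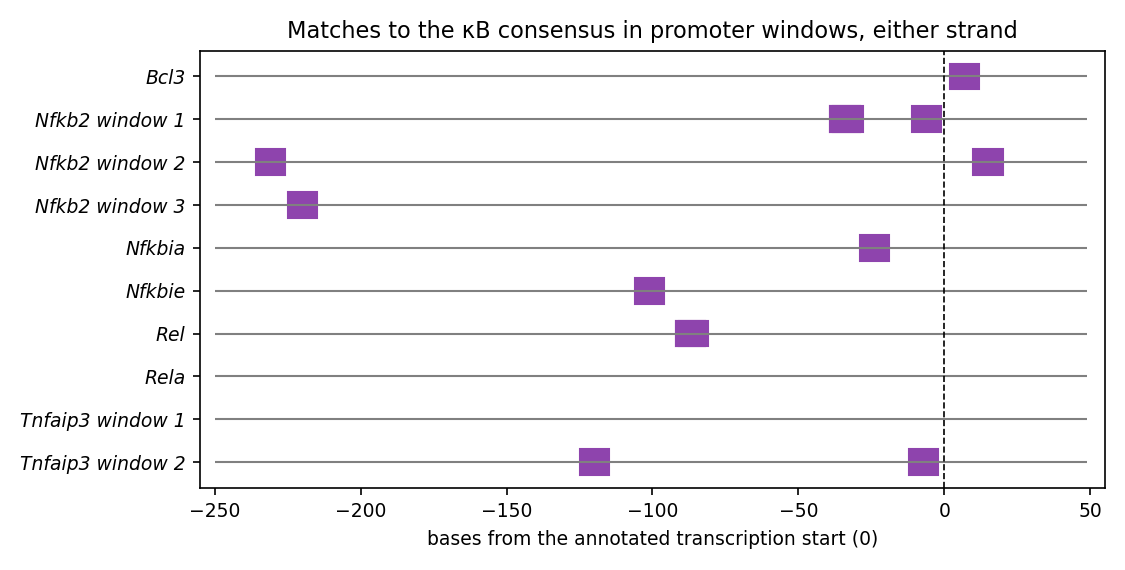
Each grey line is 1 promoter window of a member, from 250 bases before to 50 bases after the annotated transcription start (dashed line at 0), and each purple block is a match to the κB consensus on either strand. The horizontal axis gives bases from the start. Matches appear in 8 of the 10 windows, with none for Rela or for the internal start of Tnfaip3.

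Of the 10 members, 9 had lower levels in GC B cells than in naive B cells, none was called higher, and Tnfaip3 alone was not called (limma on log2(TPM + 1), Benjamini-Hochberg adjusted p under 0.05 over all genes tested). Over all 12785 genes, 30.1% were called lower and 35.5% higher by the same rule. The log2 fold changes of the 9 ran from -1.38 for Bcl3 to -0.40 for Rel, and the median over all 10 members was -0.69, against 0.03 over all genes tested. For these 9 genes every GC pool lay below every naive pool, which was the case for 32.8% of all genes tested. The members were chosen with results of these data known, so no test was made of the list as a whole.

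**Figure D2:**
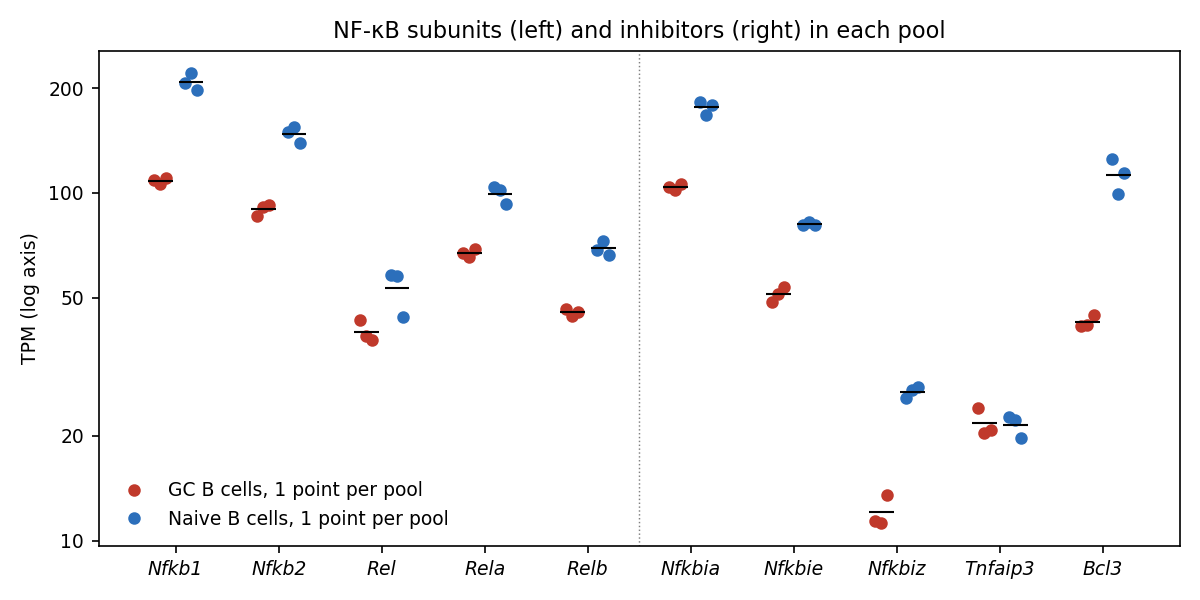
Level of each member in TPM (vertical log axis) in the 3 GC pools (red) and the 3 naive pools (blue), with 1 point per pool and a black line at the mean; subunits stand left of the dotted line and inhibitors right of it. The GC points lie below the naive points for 9 members, and for Tnfaip3 they overlap.

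Among the subunits, Nfkb1 (ENSMUSG00000028163, chr3:135584655-135691969 in GRCm38) had the highest level of all members in both populations. It measured 109.0, 105.7 and 110.3 TPM in GC pools 1, 2 and 3, and 206.8, 220.7 and 197.5 TPM in naive pools 1, 2 and 3. The GC pools lay close together and far below the lowest naive pool, with a GC mean of 52.0% of the naive mean and a log2 fold change of -0.94 (SE 0.053, limma adjusted p = 1.3e-05). Nfkb2 (ENSMUSG00000025225, chr19:46300994-46312400), whose product p100 is processed to p52 in the noncanonical pathway, measured 85.8, 91.0 and 92.0 TPM in GC and 149.6, 155.0 and 139.2 TPM in naive pools. Its GC mean was 60.6% of the naive mean, again without overlap, and its log2 fold change was -0.72 (SE 0.057, limma adjusted p = 6.3e-05).

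The 3 subunit genes with a transactivation domain showed smaller differences than Nfkb1, with 95% intervals of the log2 fold change that did not overlap its own. Rela (ENSMUSG00000024927, chr19:5637442-5648134), the partner of p50 in the canonical dimer, measured 67.0, 65.5 and 69.1 TPM in GC and 103.7, 102.2 and 92.7 TPM in naive pools. No GC pool came near the naive range, and the log2 fold change was -0.56 (SE 0.059, limma adjusted p = 0.00023). Relb (ENSMUSG00000002983, chr7:19606217-19629438), which pairs with p52 in the noncanonical pathway, measured 46.2, 44.3 and 45.5 TPM in GC and 68.4, 72.9 and 66.5 TPM in naive pools. Its GC pools differed from each other by less than those of any other member in absolute level, and the log2 fold change was -0.60 (SE 0.055, limma adjusted p = 0.00012).

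Rel (ENSMUSG00000020275, chr11:23736847-23770969) encodes c-Rel, the subunit best known for its role in the growth and maintenance of activated B cells. Its level was 43.0, 38.7 and 37.7 TPM in GC pools and 57.9, 57.7 and 44.0 TPM in naive pools. Naive pool 3 lay just above GC pool 1, so that the groups were apart by a narrow margin, and the log2 fold change was -0.40 (SE 0.12, limma adjusted p = 0.025). This call was lost when GC pool 2 (adjusted p = 0.066), GC pool 3 (adjusted p = 0.073), naive pool 1 (adjusted p = 0.077) or naive pool 2 (adjusted p = 0.077) was left out, and it held, with an adjusted p of 0.0021, on the log2 fold change of -0.53 obtained without naive pool 3. The lower level of Rel in GC B cells is therefore the least certain of the 9.

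The 5 subunit genes together summed to a mean of 350.2 TPM in GC (SD 4.70, n = 3), compared with 578.2 TPM in naive B cells (SD 35.0, n = 3). The share of Nfkb1 in that sum was 30.9% ± 0.269 in GC and 36.0% ± 0.692 in naive pools (SD, n = 3). The share of Rel was 11.4% ± 0.825 in GC and 9.17% ± 0.912 in naive pools, and that of Rela was 19.2% ± 0.270 and 17.2% ± 0.448. Nfkb2 held 25.6% ± 1.01 of the sum in GC and 25.6% ± 0.171 in naive pools.

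The same values can be written as ratios within a pool, which, like the shares, do not depend on the scaling of the pool. The ratio of Rel to Nfkb1 was 0.395, 0.367 and 0.342 in GC pools 1, 2 and 3 and 0.280, 0.262 and 0.223 in naive pools 1, 2 and 3. The ratio of Rela to Nfkb1 was 0.615, 0.620 and 0.626 in GC and 0.501, 0.463 and 0.469 in naive pools. In both ratios every GC pool stood above every naive pool. The mean ratio of Nfkb2 to Nfkb1 was 0.828 in GC and 0.710 in naive pools, and that of Relb to Nfkb2 was 0.507 and 0.468, also without overlap. For each of the 6 ratios compared the exact two-sided permutation test gave p = 0.1 (adjusted p = 0.1), which is the smallest p that 3 pools against 3 allow, so the test cannot reach 0.05.

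**Figure D3:**
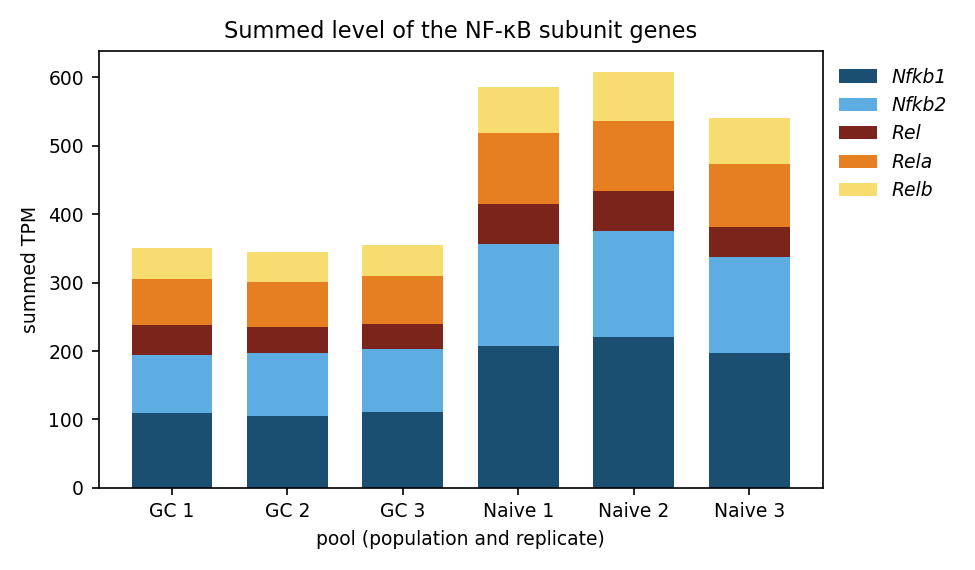
Stacked bars give the TPM of the 5 subunit genes in each of the 6 pools, with the summed TPM on the vertical axis starting at 0. The GC sums lie between 345 and 355 TPM and the naive sums between 540 and 608 TPM, and the Nfkb1 segment shrinks the most between naive and GC.

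Among the inhibitors, 4 of 5 were called lower in GC B cells and none higher, beside 30.1% lower and 35.5% higher over all genes tested. Nfkbia (ENSMUSG00000021025, chr12:55489409-55492647), which encodes IκBα, the first IκB to be degraded and made again, measured 103.7, 102.2 and 106.3 TPM in GC and 182.0, 167.7 and 178.5 TPM in naive pools. The groups lay far apart, with a log2 fold change of -0.75 (SE 0.047, limma adjusted p = 2.1e-05). Nfkbie (ENSMUSG00000023947, chr17:45555700-45563169), which encodes IκBε, a retainer of c-Rel and p65 dimers in B cells, measured 48.6, 51.3 and 53.6 TPM in GC and 81.0, 82.6 and 81.1 TPM in naive pools. Its naive pools differed by the smallest spread of any member (a coefficient of variation of 1.08%), and the log2 fold change was -0.66 (SE 0.053, limma adjusted p = 6.4e-05).

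Bcl3 and Nfkbiz encode nuclear members of the IκB family, which bind p50 or p52 dimers on DNA and can activate as well as repress. Bcl3 (ENSMUSG00000053175, chr7:19808462-19822824) had the largest difference of all members, with 41.4, 41.7 and 44.4 TPM in GC and 124.7, 99.0 and 113.7 TPM in naive pools. The GC mean was 37.8% of the naive mean, the naive pools varied more among themselves than the GC pools, and the log2 fold change was -1.38 (SE 0.090, limma adjusted p = 2.6e-05). Nfkbiz (ENSMUSG00000035356, chr16:55811375-55838954), which encodes IκBζ, had the lowest GC level of the members, with 11.4, 11.2 and 13.5 TPM in GC and 25.7, 27.1 and 27.6 TPM in naive pools. This was 45.0% of the naive mean, without overlap, and a log2 fold change of -1.09 (SE 0.091, limma adjusted p = 8e-05).

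Tnfaip3 (ENSMUSG00000019850, chr10:19000910-19015410) encodes A20, which removes and replaces ubiquitin chains on signaling proteins upstream of IKK. It measured 24.1, 20.4 and 20.8 TPM in GC and 22.7, 22.2 and 19.7 TPM in naive pools. The groups overlapped, with the highest pool in GC and the lowest in naive B cells, and the log2 fold change was 0.01 with a 95% interval from -0.22 to 0.24 (SE 0.095, limma adjusted p = 0.93). That interval leaves out a fall as large as the fitted value of any of the other 9 members, although its sign is not fixed, since it turned negative under 3 other scalings and without GC pool 1 or naive pool 3.

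Set against Nfkbia, which was lower in GC B cells, Tnfaip3 stood higher there, although its own level was not called different. The ratio of Tnfaip3 to Nfkbia was 0.232, 0.200 and 0.195 in GC and 0.125, 0.132 and 0.110 in naive pools, with no overlap and a log2 difference of 0.77. The ratio of Nfkbia to Rela was lower in every GC pool than in any naive pool, at 1.55 ± 0.0109 in GC and 1.77 ± 0.144 in naive pools (SD, n = 3). The 3 classical IκB genes Nfkbia, Nfkbib and Nfkbie together stood at 0.602 ± 0.00200 of the subunit sum in GC and 0.557 ± 0.0421 in naive pools (SD, n = 3). For this last ratio the lowest GC pool (0.601) lay just above the highest naive pool (0.597), a gap far smaller than the spread of the naive pools.

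**Figure D4:**
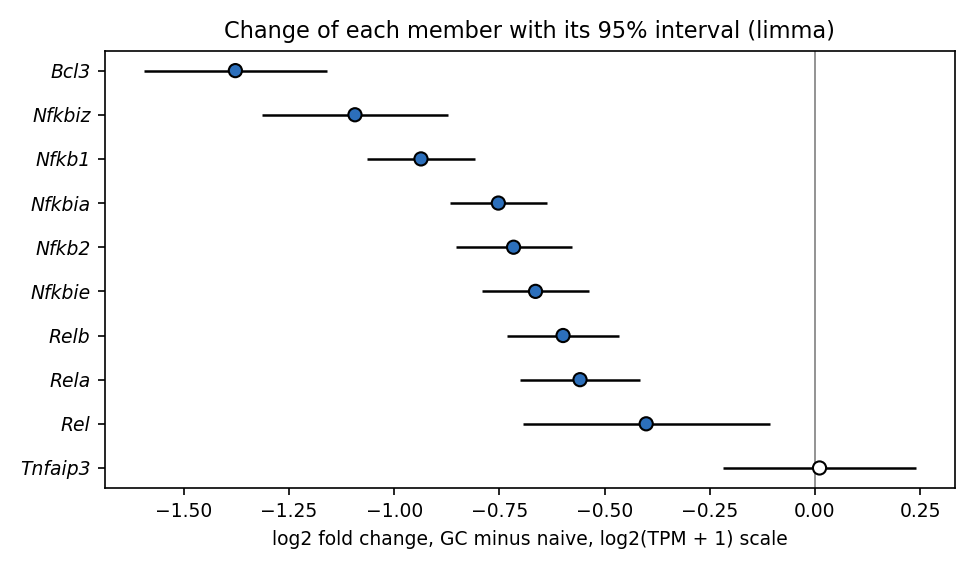
Points give the log2 fold change of each member (GC minus naive, log2(TPM + 1) scale) with its 95% interval from limma as a bar, ordered from the largest fall at the top. The intervals of 9 members lie below 0, from Bcl3 at -1.38 to Rel at -0.40, and that of Tnfaip3 spans 0.

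The order of levels, which TPM allows to be compared between genes, changed in a few places. In GC B cells it ran Nfkb1, Nfkbia, Nfkb2, Rela, Nfkbie, Relb, Bcl3, Rel, Tnfaip3 and Nfkbiz, where the pools of Nfkb1 and Nfkbia overlapped, as did those of Relb and Bcl3 and those of Bcl3 and Rel. In naive B cells it ran Nfkb1, Nfkbia, Nfkb2, Bcl3, Rela, Nfkbie, Relb, Rel, Nfkbiz and Tnfaip3, with overlap between Bcl3 and Rela only. Bcl3 thus had rank 4 in naive and rank 7 in GC B cells, and Tnfaip3 and Nfkbiz exchanged the lowest places. Compared with the tested genes, Nfkb2 stood at percentile 92.5 of level in naive and percentile 85.4 in GC B cells, while Nfkbiz stood at percentiles 59.5 and 39.0.

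The genes most like Bcl3 over the 6 pools, by Pearson r on log2(TPM + 1), were Irf5 (r = 0.999), its fellow member Nfkbia (r = 0.999) and Ccnd2 (r = 0.999), and 182 genes had r over 0.99 with it. Any gene with a like gap between the populations and little spread within them scores high on this measure. For Tnfaip3, the member with the highest log2 fold change, the closest were Aasdh (r = 0.995), Stk4 (r = 0.991) and Fbxl8 (r = 0.971), and 2 genes had r over 0.99. Tnfaip3 had no gap between the populations, so these r values follow small differences among the 6 pools. They are also the highest picked from all genes tested, and the effect of that choice was not tested. No p is given for these values.

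The kinases that release NF-κB were measured next. Of 10 genes of the IKK complex and its activating kinases, 4 were lower in GC B cells, none was higher and 6 were not called. By the same rule 30.1% of all genes tested were called lower and 35.5% higher. The median log2 fold change of the list was -0.19. Ikbkb, the catalytic subunit of the canonical pathway, measured 86.7, 85.5 and 82.1 TPM in GC and 200.7, 205.8 and 186.7 TPM in naive pools, a log2 fold change of -1.21 (SE 0.053, limma adjusted p = 4e-06), and it had the highest level of the list. Map3k14 (NIK), the kinase of the noncanonical pathway, measured 26.9, 24.2 and 24.8 TPM in GC and 41.0, 48.6 and 40.7 TPM in naive pools, a log2 fold change of -0.75 (limma adjusted p = 0.0004). Named after their values were seen, Chuk (IKKα) and Tbk1 also fell, by 0.48 and 0.50 on the log2 scale, while the regulatory subunit Ikbkg (NEMO) had overlapping pools and a log2 fold change of -0.28 (limma adjusted p = 0.31).

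In the arm that links the B cell receptor to IKK, Malt1 and Prkcb were both lower in GC B cells. The protease Malt1 measured 38.2, 37.2 and 38.5 TPM in GC and 79.0, 88.6 and 71.7 TPM in naive pools, a log2 fold change of -1.05 (limma adjusted p = 6.2e-05). Prkcb, a protein kinase C that acts below the B cell receptor, measured 99.5, 95.9 and 97.7 TPM in GC and 188.7, 193.5 and 162.5 TPM in naive pools (log2 fold change -0.88, limma adjusted p = 7.5e-05). In neither gene did the pools overlap.

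Among 12 TRAF, cIAP and related adaptor genes, 2 were higher, 7 lower and 3 not called, beside 35.5% higher and 30.1% lower over all genes tested. The median log2 fold change of the list was -0.32. The closely related ubiquitin ligases Birc2 (cIAP1) and Birc3 (cIAP2) moved in opposite directions. Birc2 measured 41.6, 43.9 and 45.8 TPM in GC and 30.6, 31.6 and 28.0 TPM in naive pools (log2 fold change 0.53, limma adjusted p = 0.00068). Birc3, which is itself an NF-κB target and had the highest level of the list, measured 141.4, 127.6 and 147.3 TPM in GC and 303.6, 328.1 and 283.9 TPM in naive pools (log2 fold change -1.13, limma adjusted p = 2.9e-05). The other gene that rose was Traf1, by 0.45 (limma adjusted p = 0.00094), and Irak4, the kinase next to the Toll-like receptor adaptor MyD88, fell by 0.56 on the log2 scale (limma adjusted p = 0.00027).

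The enzymes that build and remove linear and other ubiquitin chains, the machinery in which A20 works, were mixed. Of 12 genes, 4 were higher, 6 lower and 2 not called, beside 35.5% higher and 30.1% lower over all genes tested. Their median log2 fold change was -0.35. Fam105b, which encodes the linear-chain deubiquitinase OTULIN, rose by 0.48 (limma adjusted p = 0.00052), from 94.4, 86.2 and 86.5 TPM in naive pools to 117.8, 126.8 and 129.5 TPM in GC pools. Cyld, another deubiquitinase that restrains NF-κB, rose by 0.47 (limma adjusted p = 0.0014), from 25.4, 25.5 and 23.0 TPM to 36.6, 34.4 and 32.8 TPM. Spata2, the partner that brings CYLD to its complex, and Tnip1 were the others that rose, by 0.43 and 0.14 on the log2 scale, and they are named here after their values were seen. In the opposite direction, the deubiquitinase Otud7b fell by 1.27 and the A20 partner Tax1bp1 by 0.90 on the log2 scale (limma adjusted p = 9.5e-05 and 4.7e-05). Rbck1 (HOIL-1), the most abundant of the list, had a log2 fold change of -0.24 that was not called (limma adjusted p = 0.062), but it passed the threshold under 6 of the alternatives, with adjusted p from 0.0089 to 0.048.

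Of the other IκB genes, Nfkbid (IκBNS, a nuclear member like Bcl3) measured 22.1, 20.9 and 22.0 TPM in GC and 78.1, 71.8 and 67.8 TPM in naive pools, and its log2 fold change was -1.70 (SE 0.069, limma adjusted p = 3.1e-06). With Bcl3 and Nfkbiz, all 3 nuclear IκB genes measured were lower in GC B cells, by more than 1 on the log2 scale. They were set together after their values were seen, and 30.1% of all genes tested were called lower. Nfkbib (IκBβ) measured 58.8, 55.2 and 53.2 TPM in GC and 65.9, 61.9 and 62.7 TPM in naive pools, with a log2 fold change of -0.19 (limma adjusted p = 0.029). The call for Nfkbib was lost without GC pool 2 (adjusted p = 0.082), GC pool 3 (adjusted p = 0.10) or naive pool 1 (adjusted p = 0.095).

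Of 10 receptors that lead to NF-κB, 7 were tested and these were lower in GC B cells, as were 30.1% of all genes tested. However, Tlr7 was below 1 TPM in every GC pool. It passed the filter on low values only through the naive pools, so that it had to differ. Tlr7, a sensor of single-stranded RNA, stood at 0.675, 0.388 and 0.753 TPM in GC and 24.0, 26.2 and 23.4 TPM in naive pools (log2 fold change -4.00, given as a description). Tnfrsf13b (TACI), a receptor for BAFF and APRIL, measured 88.7, 94.2 and 98.2 TPM in GC and 260.7, 273.1 and 266.9 TPM in naive pools (log2 fold change -1.50, limma adjusted p = 1.4e-06). The BAFF receptor Tnfrsf13c, the most abundant of the list, had a log2 fold change of -0.21 (limma adjusted p = 0.019), and this call was lost without GC pool 1 (adjusted p = 0.065), GC pool 3 (adjusted p = 0.062), naive pool 1 (adjusted p = 0.064) or naive pool 2 (adjusted p = 0.056).

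Genes known as targets of NF-κB moved in both directions, as did the genes tested as a whole. Of 22 listed, 20 had a value and 16 were tested, with 5 higher, 6 lower and 5 not called in GC B cells. These counts are near the shares over all genes tested, 35.5% higher and 30.1% lower. The median log2 fold change of the targets was -0.12. Gadd45b, a stress-induced growth arrest gene, measured 204.7, 173.5 and 181.9 TPM in GC and 30.8, 31.8 and 39.4 TPM in naive pools (log2 fold change 2.43, limma adjusted p = 4.8e-06). The survival gene Bcl2l1 (Bcl-xL) measured 16.6, 13.3 and 17.2 TPM in GC and 5.31, 4.86 and 5.27 TPM in naive pools (log2 fold change 1.44, limma adjusted p = 7.4e-05). Lower in GC was the chemokine receptor Ccr7, at 1.25, 1.15 and 0.627 TPM against 88.4, 95.6 and 78.8 TPM (log2 fold change -5.47, given as a description). Its GC pools stood near the filter on low values, which Ccr7 would not have passed without the naive pools. The transcription factor Irf4 was also lower, at 22.1, 21.9 and 21.2 TPM against 79.6, 79.5 and 70.1 TPM (log2 fold change -1.76, limma adjusted p = 2.5e-06). The activation marker Cd83, the most abundant of the list, had a log2 fold change of -1.17 (limma adjusted p = 4.1e-06). Bcl2a1b, named after its value was seen, was not called (limma adjusted p = 0.25). Its value is uncertain, because its near-identical copies Bcl2a1a and Bcl2a1d had no value.

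**Figure D5:**
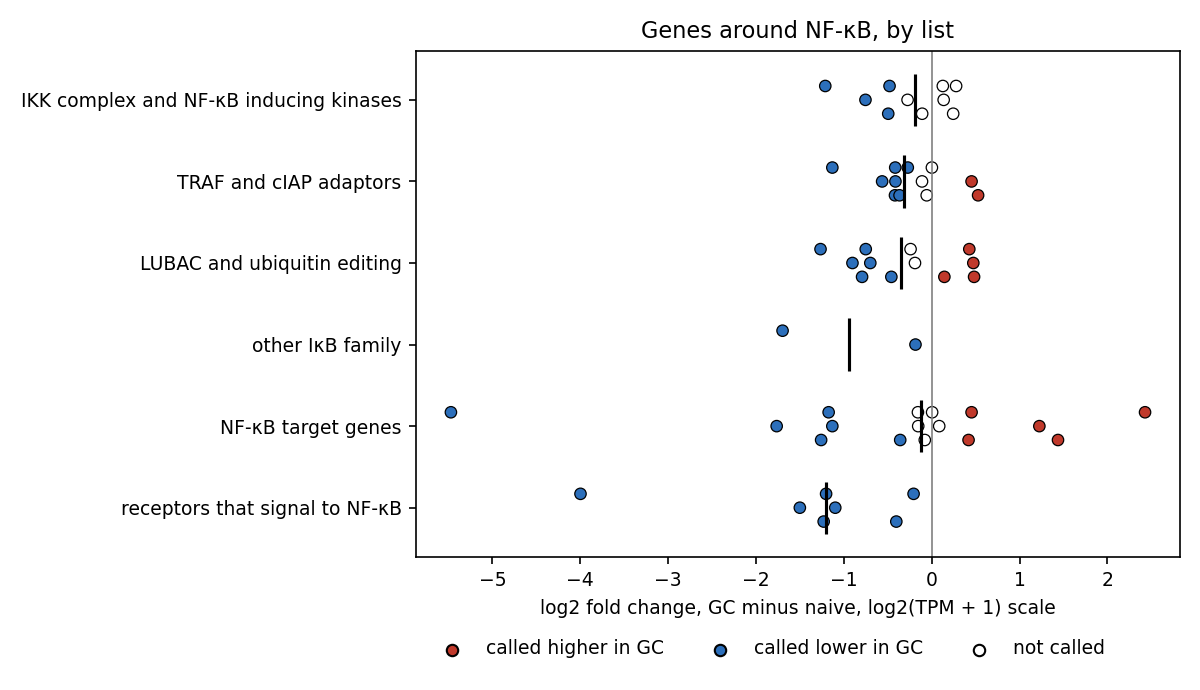
Each point is 1 tested gene of 6 lists around NF-κB, placed by its log2 fold change (GC minus naive, log2(TPM + 1) scale) and filled red where called higher in GC, blue where called lower and white where not called; black bars mark list medians. The receptors and the other IκB genes hold only blue points, whereas the target genes spread from Ccr7 at -5.47 to Gadd45b at 2.43.

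Lists of handling genes and of cell type markers were measured beside the members, and their genes moved in both directions. Over all genes tested, 30.1% were called lower and 35.5% higher. Of 11 immediate early and stress genes, which tissue handling can induce in any cell, 9 were tested, 4 were lower in GC (Jun, Fosb, Ier2 and Zfp36), Dusp1 was higher and 4 were not called, and the list summed to between 325 and 354 TPM in GC and between 632 and 679 TPM in naive pools. Of 6 epithelial genes, 5 were lower in GC and Krt18 was higher, with sums between 36.8 and 70.1 TPM in GC and between 110 and 137 TPM in naive pools, and none was at 0. Of 6 myeloid genes, 2 were tested, Cd68 was higher in GC and Lyz2 was not called, with sums between 14.1 and 17.3 TPM in GC and between 9.23 and 14.2 TPM in naive pools, and S100a8 was at 0 in every pool. The plasma cell list, which includes Irf4, had 3 of 4 genes lower and Prdm1 higher in GC, with sums between 131 and 135 TPM in GC and between 192 and 212 TPM in naive pools. Of 5 stromal and follicular dendritic cell genes only Cr2, which B cells express themselves, was tested, and it was lower in GC; the list summed to between 44.4 and 52.2 TPM in GC and between 172 and 194 TPM in naive pools, and Pdpn was at 0 in every pool. The B cell genes Cd79a, Cd79b and Pax5 were lower and Ms4a1 was higher in GC. The part of each of these in the levels of the members was not tested.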

How the data were processed

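RNA-Seq libraries were prepared from 100 ng of total RNA with the NEB NEXT Ultra kit and sequenced on an Illumina HiSeq (the labels name Trizol, the methods a column kit with DNaseI). The authors used Casava 1.8, FastQC, cutadapt 1.9 and RSEM 1.2.25 on the mouse transcriptome (NCBIm38), with an assumed fragment length of 180 (SD 50), and deposited FPKM per gene and pool with 2 decimals. edgeR stands in the submitters' processing notes with no role given. FPKM was rescaled to TPM per pool. Symbols came from an annotation of NCBIM37 (33398 of 39179 identifiers matched), coordinates and promoters from RefSeq GRCm38.p6.

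Since FPKM are not counts, limma 3.58.1 in R 4.3.3 (lmFit, eBayes with trend, two-sided) was run on log2(TPM + 1), for genes of at least 1 TPM in at least 3 of 6 pools, without a replicate block; a change on this scale is understated for low genes. In simulated data 73% of 200 genes changed by 1 on the log2 scale, among 12785, were recovered, and 4.58% of calls were false. The main fit called 8392 genes, far more than were changed in the simulation, so these rates need not hold for it. Low values were whole reads for only 63.4% to 70.0% of those checked (within 0.1 of a read), so depth is approximate and no count test was used. Intervals are 95%.

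Some genes of the lists are not reported here. The members and lists were chosen with earlier results of these data known. Named were all members and, of each list, the 2 largest called changes in each direction and the gene with the highest mean TPM, and the 3 genes most like the members with the largest fall and the highest log2 fold change. Alternatives were pseudocounts of 0.1 and 0.01, no filter or 5 TPM, FPKM as deposited, quantile normalization, median ratio scaling, a replicate block and leaving out each pool. Tables were handled in pandas 2.3.3 and numpy 2.4.6 under Python 3.11.15, exact tests in scipy 1.17.1, plots in matplotlib 3.10.9.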

Additional observations from a re-analysis of the deposited data

How the results depend on the processing

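Over all genes tested, the main fit called 30.1% lower and 35.5% higher in GC B cells. Under all 14 alternatives no member was called higher in GC B cells, and 8 or 9 of 10 were called lower. The missing call was that of Rel, whose log2 fold change ran from -0.53 to -0.34 when 1 pool was left out, with adjusted p from 0.0021 to 0.077. The sign of Tnfaip3, never called, turned to -0.038 with FPKM as deposited, -0.047 with quantile normalization and -0.028 with median ratio scaling, and ran from -0.062 to 0.053 with 1 pool left out (adjusted p over the 14 alternatives from 0.61 to 0.94). The cause was not tested. No source states that equal numbers mark the same mice, so the numbers were not taken as pairs. Same-numbered pools deviated together weakly (r = 0.083, 0.022 and 0.046). Among differently numbered pools, naive pool 2 with GC pool 3 gave r = 0.030, and the others gave negative values. With deviations taken from the mean of only 3 pools per group, these values cannot decide whether the pools are pairs. With the replicate block 7960 genes were called, against 8392 without it, and 9 members were lower. Over all genes, between 7095 and 8639 were called across the alternatives. Those called lower ran from 3046 of 12278 tested without naive pool 2 to 4450 of 12785 with quantile normalization. Those called higher ran from 3581 of 12077 without GC pool 3 to 4734 of 20845 with no filter. Among the named genes of the lists, 306 comparisons kept their call and 13 did not, all of them of Rbck1, Nfkbib or Tnfrsf13c. Precision is limited by 3 pools per population and a depth known only approximately, and the call for Rel, whose pools spread more than those of the other members called (SE 0.12), depends on which pools enter.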
